A study of Mus musculus with 15 samples.

Results

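The machinery that copies chromosomal DNA in S phase was followed through 48 of its genes in liver tumors of mice with and without the tumor suppressor p53 in the liver. A gene was a member when the symbol of a noncontrol probe on the array was in a list of replication genes. The list covers the MCM helicase, origin recognition and licensing, origin firing, polymerases and primase, the sliding clamp and its loader, single strand binding, Okazaki fragment processing, nucleotide supply, and chromatin assembly with DNA methylation upkeep. All 48 were on the array, with 64 probes, among 24336 gene symbols. 35 of them had 1 probe and 13 had more, and each is given by its brightest probe over the 15 arrays.

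RNA of 15 tumors was measured on 1-colour Agilent arrays: 5 hepatocellular carcinomas (HCC) from p53f/f animals, 5 HCC from p53LKO animals and 5 intrahepatic cholangiocarcinomas (ICC), also from p53LKO animals. ICC are tumors with features of bile duct cells. p53f/f mice carry floxed Trp53 alleles and keep p53, and p53LKO mice lack Trp53 in the liver. All mice, males of a C57/BL6J background, had been given the liver toxin carbon tetrachloride (CCl4) by intraperitoneal injection for 16 weeks, at 0.5 µl per g body weight and from 6 weeks of age. The labels give 1 injection every 3 days and the methods 2 a week, and the study killed mice at several ages and followed p53f/f mice, in which tumors came later, for longer. The age of each mouse on the arrays, and the driver of the liver-specific deletion, are not given in the sources used here, so age and genotype cannot be told apart. The tumors came from 10 mice, so they were not all independent: mouse 3717 gave 2 of the p53f/f HCC, and mice 3731, 3733, 3976 and 5283 gave an HCC and an ICC each. In whole tumor tissue, fewer cells in S phase and less RNA per cell cannot be told apart.

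Replication starts at origins that are marked by the origin recognition complex. In G1 phase, Cdc6 and Cdt1 load the MCM2 to MCM7 ring there, geminin (Gmnn) holds Cdt1 back afterwards, and at firing the GINS complex and Mcm10 help to turn the ring into a moving helicase. Primase and the polymerases alpha, delta and epsilon then make the new strands, with the sliding clamp PCNA loaded by replication factor C. Most of these genes are transcribed as cells pass from G1 into S phase, under E2F transcription factors. p53 halts that passage after damage through p21 (Cdkn1a), and hepatocytes of a healthy adult liver divide little.

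Levels are log2 signals relative to the 75th percentile of the same array, so 1 unit is a 2-fold difference, and levels of different probes are not set against each other. Trp53, the deleted gene, stood at -0.76, -1.27, -0.68, -1.07 and -1.27 in the p53f/f HCC, at -2.86, -3.86, -2.80, -3.21 and -2.75 in the p53LKO HCC and at -4.19, -3.18, -2.31, -2.98 and -2.71 in the ICC. It was lower in every p53LKO tumor than in every p53f/f tumor, with a log2 fold change of -2.08 (SE 0.24, limma, adjusted p = 0.000167) between the HCC. Well above background it was found on 4 of the 5 p53LKO HCC arrays, on 2 of the 5 ICC arrays and on each of the 5 p53f/f HCC arrays. The array files place its probe on chromosome 17 (mm9), while the gene lies on chromosome 11. The arrays filled 2 slides, each scanned once, in 2 rows. All p53f/f HCC lay in the upper row (4 on slide 1, 1 on slide 2), all ICC in the lower row (1 on slide 1, 4 on slide 2). The p53LKO HCC lay in both (2 in the lower row of slide 1, 3 in the upper row of slide 2). Probes well above background made up 55.1 to 70.1% of all in the p53f/f HCC, 61.0 to 62.1% in the upper-row and 37.0 to 46.4% in the lower-row p53LKO HCC, and 42.5 to 47.0% in the ICC. The tissue markers matched the labels in part. All 10 hepatocyte markers were well above background on all arrays, ICC included. The biliary list had a mean level of 0.90 to 1.23 in the ICC against -1.69 to -0.70 in the p53LKO HCC and -1.87 to 0.40 in the p53f/f HCC. Of its 9 markers, Krt19 and Spp1, well above background on all p53LKO arrays, were higher in ICC than in p53LKO HCC, and 5 did not pass. Krt7 and Epcam, which mark bile duct cells, were well above background on 4 and 5 ICC arrays, on 1 and 0 arrays of the p53LKO HCC and on 2 and 1 arrays of the p53f/f HCC, so that between the p53LKO groups they were tested only because of the ICC.

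**Figure D1:**
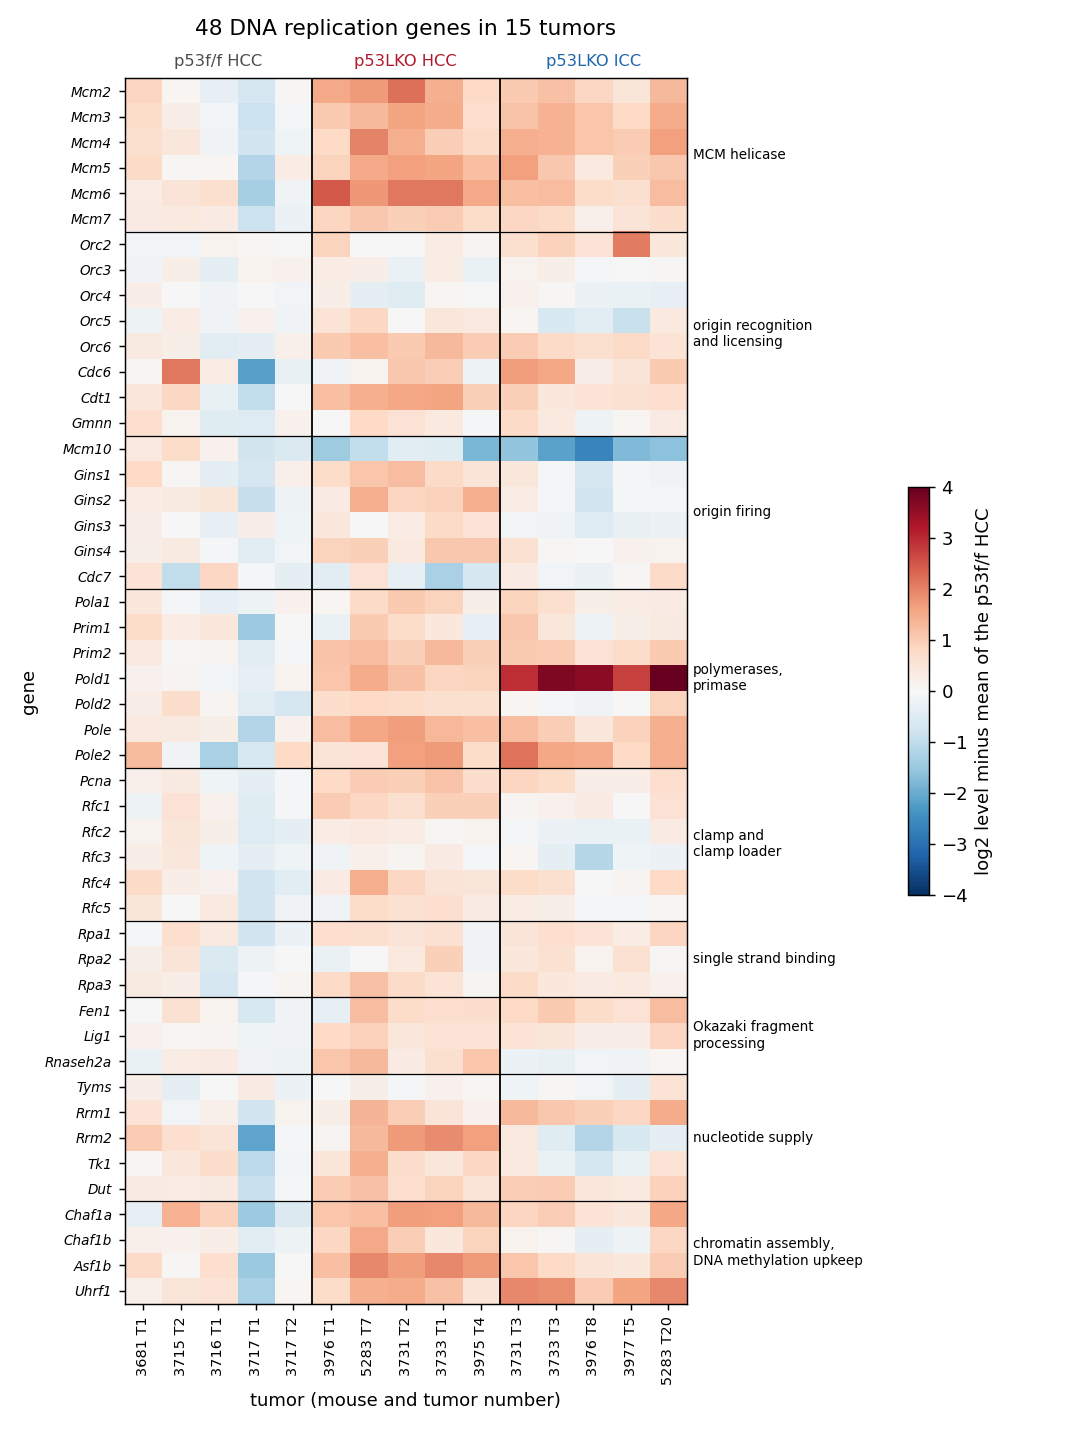
Level of each of the 48 genes (rows, grouped by role) in each of the 15 tumors (columns, by mouse and tumor number), as the log2 level minus the mean of the 5 p53f/f HCC. Red is above and blue below that mean: most rows are red in the p53LKO HCC, Mcm10 is blue in both p53LKO groups, Pold1 is darkest red in the ICC, and tumor 1 of mouse 3717 is blue in most rows.

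Replication genes were more often higher than lower in HCC of p53LKO mice against HCC of p53f/f mice. Of the 47 members tested, 24 were higher and 1 was lower in p53LKO HCC at an adjusted p under 0.05 (51.1% and 2.13%), where 13.8% of all 17818 genes tested were higher and 15.7% lower. With a 2-fold change also asked for, 13 members were higher and 1 lower, beside 5.21% and 10.8% of all genes. 45 of 47 had a higher mean in p53LKO HCC, whatever their p, and the median log2 fold change was 0.86, beside 0.064 over all genes. In 17 members (36.2%) every p53LKO HCC lay outside the range of the p53f/f HCC, which held for 19.5% of all genes, and each of these had the smallest exact permutation p that 5 against 5 tumors allow, 0.00794. Another scaling of the arrays moved all genes together: scaled on probes detected on all arrays, 18 members were higher (6.59% of all genes higher, 23.8% lower), on the median of all probes 44 (49% and 7.49%) and on the spike-in probes 42 (46.7% and 6.49%). These scalings shift each array by a constant, so by construction the members' median stayed 0.79 above that of all genes under each of them. After quantile normalization, which is not such a shift, it stood 0.63 above. The median difference was 0.83 on slide 1 (2 p53LKO against 4 p53f/f HCC), 0.84 on slide 2 (3 against 1) and 0.70 within the upper row (3 against 5). With the row of the slide as a block, 16 members were higher (8.67% of all genes) and none lower by limma, and within the upper row 17 (8.86%) and none. All 6 MCM genes passed in 1 or both of these fits, Mcm4 only within the row and Mcm7 only with the block. Cdc7, the kinase that phosphorylates MCM proteins at firing, was well above background on 2 p53f/f HCC arrays and on none of the p53LKO arrays, and was not tested.

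**Figure D2:**
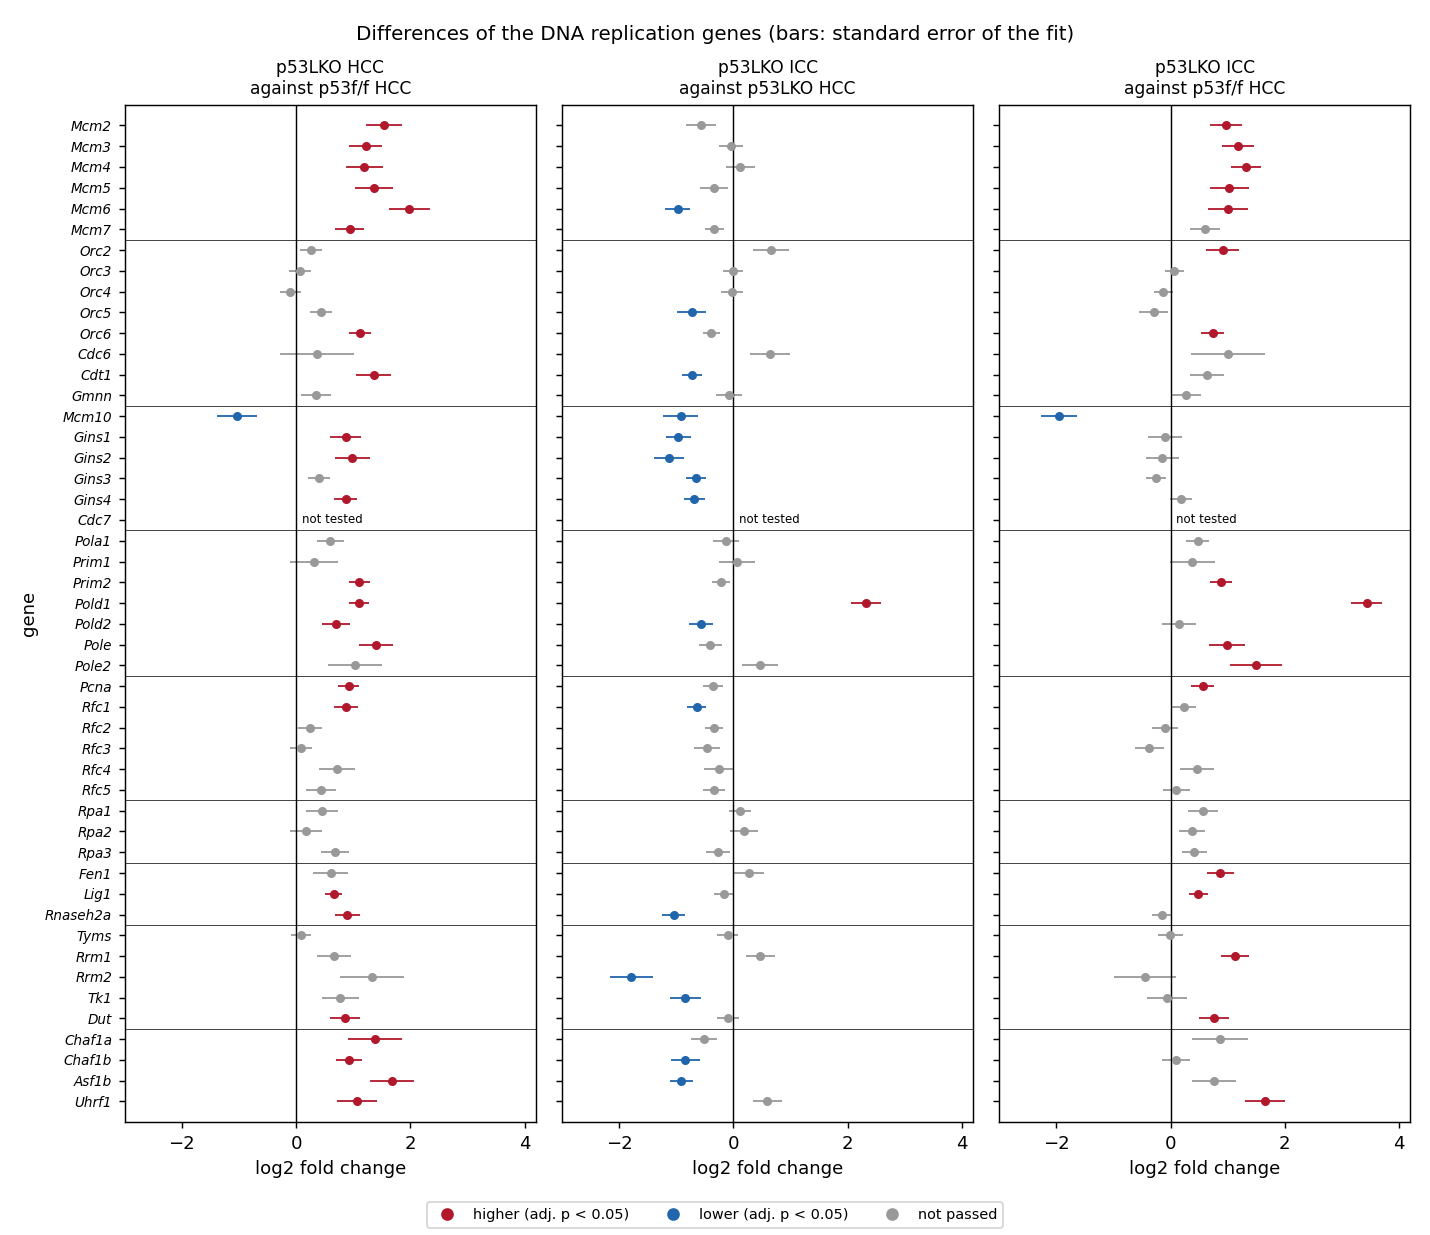
Log2 fold change of each member in the 3 comparisons, with the standard error of the fit as a bar; red and blue mark members higher or lower at an adjusted p under 0.05, grey those that did not pass. All 6 MCM genes lie to the right in the first panel, the 5 tested origin firing genes lie to the left in the middle panel, and Pold1 stands apart at 2.33 and 3.43 in the panels of the ICC.

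The helicase subunits Mcm2 to Mcm7, which unwind the parental DNA, were all 6 higher in p53LKO HCC, 5 of them over 2-fold, with a median of 1.29. In what follows, levels are listed in the order of mice 3681, 3715, 3716, 3717 (tumor 1) and 3717 (tumor 2) for the p53f/f HCC, 3976, 5283, 3731, 3733 and 3975 for the p53LKO HCC, and 3731, 3733, 3976, 3977 and 5283 for the ICC. Mcm6 stood at 3.31, 3.53, 3.65, 1.67 and 2.84 in the p53f/f HCC, at 5.45, 4.73, 5.10, 5.10 and 4.51 in the p53LKO HCC and at 4.19, 4.22, 3.74, 3.63 and 4.23 in the ICC. The p53LKO HCC lay above every other tumor, the lowest ICC lay next to the highest p53f/f HCC, and Mcm6 had the largest rise of any member between the HCC, 3.95-fold, with a log2 fold change of 1.98 (SE 0.36, limma, adjusted p = 0.00206).

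Mcm2 stood at 0.72, -0.049, -0.47, -0.80 and -0.072 in the p53f/f HCC, at 1.39, 1.56, 2.07, 1.30 and 0.67 in the p53LKO HCC and at 0.92, 1.03, 0.71, 0.35 and 1.18 in the ICC. Its groups overlapped at 1 value, the p53LKO HCC of mouse 3975, and it was 2.89-fold higher in p53LKO HCC, with a log2 fold change of 1.53 (SE 0.32, limma, adjusted p = 0.00414) and an exact permutation p of 0.0159. Mcm5 stood at 0.55, -0.16, -0.14, -1.39 and 0.092 in the p53f/f HCC, at 0.67, 1.31, 1.44, 1.36 and 0.99 in the p53LKO HCC and at 1.43, 0.87, 0.19, 0.75 and 0.88 in the ICC. Here the HCC groups did not overlap, and the fold change was 2.57, or a log2 fold change of 1.36 (SE 0.32, limma, adjusted p = 0.00886).

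Mcm3 stood at 2.22, 1.75, 1.37, 0.60 and 1.42 in the p53f/f HCC, at 2.52, 2.76, 3.04, 2.96 and 2.15 in the p53LKO HCC and at 2.60, 2.85, 2.57, 2.28 and 2.96 in the ICC. Only mouse 3681, the highest p53f/f HCC, reached the lowest p53LKO HCC, and a log2 fold change of 1.22 (SE 0.29, limma, adjusted p = 0.00944) was found. Mcm4 stood at 1.88, 1.69, 1.09, 0.48 and 1.07 in the p53f/f HCC, at 2.03, 3.23, 2.71, 2.22 and 2.0 in the p53LKO HCC and at 2.69, 2.63, 2.37, 2.27 and 2.87 in the ICC. The HCC did not overlap, with a log2 fold change of 1.20 (SE 0.32, limma, adjusted p = 0.0149). Mcm7 stood at 2.61, 2.67, 2.60, 1.41 and 2.03 in the p53f/f HCC, at 3.14, 3.35, 3.22, 3.29 and 3.00 in the p53LKO HCC and at 3.09, 3.03, 2.48, 2.79 and 2.97 in the ICC. Again the HCC did not overlap, and its log2 fold change of 0.94 (SE 0.25, adjusted p = 0.0145) was the smallest of the 6. The array files place its probe on chromosome 16 (mm9), while the gene lies on chromosome 5. Pcna, the sliding clamp, stood at 3.85, 4.01, 3.46, 3.29 and 3.58 in the p53f/f HCC, at 4.42, 4.64, 4.60, 4.78 and 4.34 in the p53LKO HCC and at 4.49, 4.39, 3.91, 3.91 and 4.32 in the ICC. Its HCC groups did not overlap, and a log2 fold change of 0.92 (SE 0.18, limma, adjusted p = 0.00315) was found, although the files place this probe on chromosome 19 and the gene lies on chromosome 2.

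**Figure D3:**
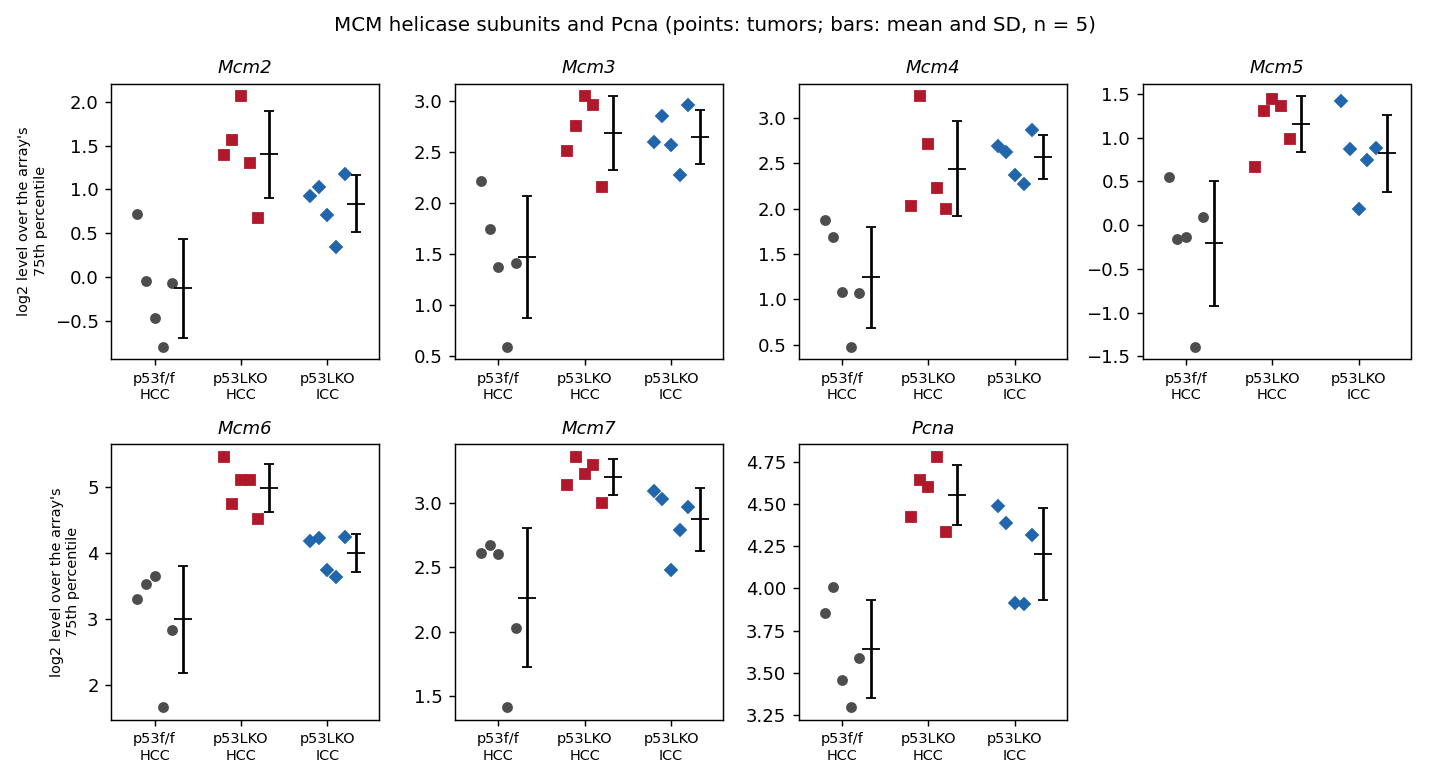
Levels (log2 signal minus the 75th percentile of the array) of Mcm2 to Mcm7 and Pcna in each tumor of the 3 groups, with mean and SD (n = 5 tumors each). In all 7 panels the p53LKO HCC lie above the p53f/f HCC or meet them at 1 tumor, and the ICC of Mcm6, from 3.63 to 4.23, lie below all p53LKO HCC.

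The promoters of the helicase genes are shown as background, with letters of the kind that E2F factors bind. A part of E2F factors in the levels of these tumors was not tested. In 300-base windows around the RefSeq start (250 bases before and 50 after it, GRCm38.p6), both strands were searched for TTTGGCGC, TTTCCCGC, TTTCGCGC and TTTGCCGC (the first and the third can overlap their own and each other's reverse complement). Of 40 members with a window, 14 (35.0%) held a match, beside 2.6% of 27025 genes; 8 of the 18 higher members with a window and 6 of the 20 that did not pass held one. Mcm4 and 7 other members had no window in the table used. The last 200 bases before the start are printed 5′ to 3′ along the gene, with matches on either strand in capitals, for the MCM genes with a window and for Pold1 and Mcm10, which moved unlike the others.
Mcm2: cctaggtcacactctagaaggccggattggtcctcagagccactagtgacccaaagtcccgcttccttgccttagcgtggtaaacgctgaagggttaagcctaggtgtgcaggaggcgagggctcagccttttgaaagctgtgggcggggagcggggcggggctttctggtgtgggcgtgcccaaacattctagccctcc
Mcm3: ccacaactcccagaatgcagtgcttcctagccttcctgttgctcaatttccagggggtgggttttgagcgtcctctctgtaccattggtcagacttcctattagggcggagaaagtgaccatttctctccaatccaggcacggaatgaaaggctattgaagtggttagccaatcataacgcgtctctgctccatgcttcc
Mcm5: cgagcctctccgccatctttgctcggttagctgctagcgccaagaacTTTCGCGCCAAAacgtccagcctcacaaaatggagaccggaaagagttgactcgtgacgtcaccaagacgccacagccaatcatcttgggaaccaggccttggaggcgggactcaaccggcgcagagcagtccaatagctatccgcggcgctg
Mcm6: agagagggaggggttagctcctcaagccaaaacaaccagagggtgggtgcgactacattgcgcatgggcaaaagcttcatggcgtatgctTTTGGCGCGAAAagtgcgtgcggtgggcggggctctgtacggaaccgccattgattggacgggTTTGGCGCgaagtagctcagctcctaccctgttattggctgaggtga
Mcm7: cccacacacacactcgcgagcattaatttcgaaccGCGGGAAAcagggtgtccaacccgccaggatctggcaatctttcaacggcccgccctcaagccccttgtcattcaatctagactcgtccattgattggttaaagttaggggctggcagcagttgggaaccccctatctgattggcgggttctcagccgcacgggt
Pold1: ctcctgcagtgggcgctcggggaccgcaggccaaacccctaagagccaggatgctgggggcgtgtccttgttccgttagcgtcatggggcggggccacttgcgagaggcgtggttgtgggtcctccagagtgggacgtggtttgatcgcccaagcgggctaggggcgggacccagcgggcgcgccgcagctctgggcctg
Mcm10: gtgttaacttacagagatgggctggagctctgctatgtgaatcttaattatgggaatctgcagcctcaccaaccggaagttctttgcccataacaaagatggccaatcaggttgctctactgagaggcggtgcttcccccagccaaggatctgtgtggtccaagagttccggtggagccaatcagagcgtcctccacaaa
These lie at chr6:88898781-88898980 (minus strand), chr1:20820313-20820512 (minus strand), chr8:75109309-75109508 (plus strand), chr1:128359706-128359905 (minus strand), chr5:138171884-138172083 (minus strand), chr7:44548816-44549015 (minus strand) and chr2:5012792-5012991 (minus strand). Mcm6 had 3 matches here, which start at -110, -106 and -47 relative to the start, the first 2 overlapping; Mcm5 had 2 that overlap, at -153 and -149, and Mcm7 had 1, at -165. Mcm3 and Pold1 held matches only after the start, outside the printed bases, and Mcm2 and Mcm10 held none in the whole window. A match in letters is not evidence of a bound factor.

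Of the 8 origin recognition and licensing genes, 2 were higher in p53LKO HCC, both over 2-fold. Cdt1, which loads the MCM ring, had a log2 fold change of 1.35 (SE 0.31, limma, adjusted p = 0.00711), from 1.49 ± 0.69 to 2.84 ± 0.27 (mean and SD, n = 5), without overlap. Orc6, a subunit of the origin recognition complex, had a log2 fold change of 1.12 (SE 0.19, limma, adjusted p = 0.00154), also without overlap. The other subunits Orc2, Orc3, Orc4 and Orc5 had log2 fold changes of 0.26 (adjusted p = 0.327), 0.067 (adjusted p = 0.817), -0.10 (adjusted p = 0.697) and 0.43 (adjusted p = 0.0978) and did not pass. Neither did geminin, at 0.35 (adjusted p = 0.335), nor Cdc6, at 0.37 (adjusted p = 0.691), whose p53f/f HCC ranged from -5.54 to -1.26.

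Origin firing genes went both ways. Gins1, Gins2 and Gins4 were higher, with 0.87 (adjusted p = 0.0326), 0.99 (adjusted p = 0.0309) and 0.87 (adjusted p = 0.00749), and Gins3 did not pass, at 0.41 (adjusted p = 0.126). Mcm10, which joins the helicase at firing, was the only member lower in p53LKO HCC. It stood at 2.62, 2.97, 2.40, 1.50 and 1.64 in the p53f/f HCC, at 0.80, 1.25, 1.77, 1.74 and 0.41 in the p53LKO HCC and at 0.65, 0.091, -0.41, 0.46 and 0.57 in the ICC. The HCC overlapped, since tumors 1 and 2 of mouse 3717 lay below the p53LKO HCC of mice 3731 and 3733, and a log2 fold change of -1.03 (SE 0.35, limma, adjusted p = 0.0448) with an exact permutation p of 0.0476 was near the threshold.

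Of the 7 polymerase and primase genes, 4 were higher in p53LKO HCC and none lower. Pole, the catalytic subunit of polymerase epsilon, stood at -0.051, -0.086, -0.20, -1.63 and -0.26 in the p53f/f HCC, at 0.80, 1.11, 1.23, 0.88 and 0.76 in the p53LKO HCC and at 0.79, 0.53, -0.0024, 0.46 and 0.97 in the ICC. The HCC did not overlap, and a log2 fold change of 1.40 (SE 0.29, limma, adjusted p = 0.00454) was found. Prim2, a primase subunit, had 1.11 (adjusted p = 0.00119), and Pold1 and Pold2, subunits of polymerase delta, had 1.10 (adjusted p = 0.000989) and 0.70 (adjusted p = 0.0469). The rest did not pass: Pola1, the catalytic subunit of polymerase alpha, at 0.60 (adjusted p = 0.069), Prim1 at 0.32 (adjusted p = 0.587) and Pole2 at 1.03 (adjusted p = 0.116).

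Among the clamp loader genes only Rfc1, the large subunit, was higher, at 0.88 (adjusted p = 0.0079), and Rfc2 to Rfc5 had log2 fold changes from 0.084 (Rfc3) to 0.72 (Rfc4) that did not pass. None of the 3 subunits of the single strand binding protein RPA passed by limma, and by the exact permutation test 1 (Rpa3, p = 0.0238) had an unadjusted p under 0.05. Their log2 fold changes were 0.46 (adjusted p = 0.226) for Rpa1, 0.18 (adjusted p = 0.648) for Rpa2 and 0.68 (adjusted p = 0.0553) for Rpa3. Lig1, the ligase that joins Okazaki fragments, was higher at 0.66 (adjusted p = 0.00855), and so was Rnaseh2a, which removes RNA from RNA-DNA hybrids, at 0.90 (adjusted p = 0.0111). The 4 tested probes of Rnaseh2a ran from 0.13 to 0.90, the brightest at the top. Fen1, the flap nuclease, did not pass, at 0.60 (adjusted p = 0.153).

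Nucleotide supply gave 1 call in 5. Dut, which breaks down dUTP, was higher by its brightest probe, at 0.86 (adjusted p = 0.0255), while its dimmer probe was lower, at -1.57 (adjusted p = 0.000165), so the gene has no settled direction. Tyms, Rrm1, Rrm2 and Tk1 had log2 fold changes of 0.089 (adjusted p = 0.727), 0.66 (adjusted p = 0.111), 1.33 (adjusted p = 0.0925) and 0.78 (adjusted p = 0.0876). The wide spread of Rrm2, the small subunit of ribonucleotide reductase, came with p53f/f levels of 3.17, 2.81, 2.67, 0.028 and 2.08. Orc3 and Orc4 also had probes of opposite sign between the HCC, from -0.016 to 0.067 and from -0.10 to 0.18.

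All 4 genes of chromatin assembly and DNA methylation upkeep were higher in p53LKO HCC. Asf1b, a histone chaperone, stood at -0.32, -1.04, -0.41, -2.56 and -1.06 in the p53f/f HCC, at 0.12, 0.83, 0.59, 0.83 and 0.63 in the p53LKO HCC and at 0.021, -0.28, -0.57, -0.67 and -0.058 in the ICC. The HCC did not overlap, and a log2 fold change of 1.68 (SE 0.38, limma, adjusted p = 0.00707) was the next largest rise after Mcm6. Chaf1a, a subunit of the chromatin assembly factor CAF-1, stood at -1.52, 0.18, -0.27, -2.64 and -1.77 in the p53f/f HCC, at -0.11, 0.0075, 0.47, 0.43 and 0.090 in the p53LKO HCC and at -0.35, -0.22, -0.66, -0.78 and 0.33 in the ICC. The p53f/f HCC of mouse 3715 lay among the p53LKO HCC, and a log2 fold change of 1.38 (SE 0.47, limma, adjusted p = 0.0422) was found. Chaf1b, its partner, had 0.93 (adjusted p = 0.00897), and Uhrf1, which brings the maintenance DNA methyltransferase to new DNA, 1.06 (adjusted p = 0.0388).

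18 of the 24 higher members kept their call without any 1 of the 10 tumors, the 6 MCM genes, Pcna, Asf1b, Pole and Cdt1 among them. Chaf1a lost it without any 1 of 8 tumors (all but the p53f/f HCC of mice 3715 and 3716; log2 fold change 1.02 to 1.73) and Pold2 without any 1 of 9 (all but mouse 3715; 0.54 to 0.88). Gins1 lost it without the p53f/f HCC of mouse 3716, tumor 1 of 3717 or the p53LKO HCC of 3976, 5283, 3731 or 3733 (0.70 to 1.07), and Gins2 without either tumor of 3717 or the p53LKO HCC of 5283, 3733 or 3975 (0.76 to 1.15). Dut lost it without tumor 2 of 3717 or the p53LKO HCC of 3976, 5283 or 3733 (0.63 to 0.95), and Uhrf1 without 3681, tumor 2 of 3717 or the p53LKO HCC of 5283, 3731 or 3733 (0.74 to 1.20). Mcm10, the 1 lower member, lost it without 3681, 3715, 3716 or the p53LKO HCC of 3976, 5283 or 3975 (-1.21 to -0.83). With the mean of its tumors standing for mouse 3717, 20 members were higher (9.76% of all genes), and Chaf1a, Gins1, Gins2 and Pold2 lost their call.

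Between the p53LKO tumors, the share of replication genes lower in ICC was near that of all genes, and Pold1 was the 1 gene higher. Of 47 members, 1 was higher and 15 were lower in ICC than in p53LKO HCC (2.13% and 31.9%), beside 18.5% and 29.1% of the 16935 genes tested. Past 2-fold, 1 was higher and 3 were lower, beside 13.2% and 15.2%. The median log2 fold change was -0.33, beside -0.17 over all genes, and the ranges did not overlap in 9 members (19.1%), beside 30.8% of all genes. After quantile normalization the median was -0.14, beside -0.098 over all genes. The 15 lower members became 5 when the arrays were scaled on probes detected on all arrays (median 0.035, beside 0.19 over all genes; 29.5% of all genes higher and 15.1% lower). They became 27 when scaled on the median of all probes (11.7% of all genes higher and 40.5% lower), 5 with the row of the slide as a block (17.7% of all genes lower) and 2 within the lower row (5 ICC against 2 HCC, 14.5%). The median difference was -0.14 on slide 1 (1 ICC against 2 HCC), -0.35 on slide 2 (4 against 3) and -0.37 within the lower row.

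The origin firing genes were the role with the most calls: all 5 that were tested were lower in ICC, with a median of -0.92. Gins2 stood at -1.05, -0.97, -0.85, -2.26 and -1.55 in the p53f/f HCC, at -1.02, 0.10, -0.49, -0.42 and 0.072 in the p53LKO HCC and at -1.04, -1.41, -2.11, -1.41 and -1.43 in the ICC. The p53LKO HCC lay above the ICC without overlap, and a log2 fold change of -1.13 (SE 0.26, limma, adjusted p = 0.00583) was found. Gins1 stood at 0.70, -0.069, -0.52, -0.78 and 0.10 in the p53f/f HCC, at 0.63, 0.99, 1.11, 0.64 and 0.40 in the p53LKO HCC and at 0.33, -0.17, -0.77, -0.18 and -0.26 in the ICC. These groups did not overlap either, and a log2 fold change of -0.96 (SE 0.22, limma, adjusted p = 0.00578) was found. Gins3 had -0.66 (adjusted p = 0.0112), Gins4 -0.68 (adjusted p = 0.0137) and Mcm10, whose levels are given above, -0.92 (adjusted p = 0.03). All 5 kept a negative sign under every scaling tried, and Gins2 alone of them kept its call when scaled on probes detected on all arrays, while Gins3 also lost it after quantile normalization, at -0.15. With the row of the slide as a block, Gins1 kept its call (adjusted p = 0.0352) and the other 4 lost it, and within the lower row all 5 lost it, with log2 fold changes from -1.02 to -0.46.

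Rrm2, which supplies deoxynucleotides, had the largest fall in ICC. It stood at 3.17, 2.81, 2.67, 0.028 and 2.08 in the p53f/f HCC, at 2.25, 3.45, 3.86, 4.05 and 3.79 in the p53LKO HCC and at 2.55, 1.67, 0.96, 1.50 and 1.80 in the ICC. The ICC of mouse 3731 lay above the p53LKO HCC of mouse 3976, the only overlap, with a log2 fold change of -1.78 (SE 0.37, limma, adjusted p = 0.00342) and an exact permutation p of 0.0159. The files place its probe on chromosome 19 and the gene lies on chromosome 12. The difference of Rrm2 was -0.30 on slide 1 (1 ICC against 2 HCC), -2.4 on slide 2 (4 against 3) and -1.15 within the lower row (5 against 2). Within that row Rnaseh2a fell more, at -1.35. Rrm2 lost its call under 2 of 31 alternatives. Rnaseh2a stood at 0.64, 1.21, 1.24, 0.78 and 0.72 in the p53f/f HCC, at 2.04, 2.21, 1.26, 1.54 and 2.03 in the p53LKO HCC and at 0.67, 0.61, 0.80, 0.78 and 0.99 in the ICC. Every ICC lay below every p53LKO HCC and within or below the range of the p53f/f HCC, with a log2 fold change of -1.04 (SE 0.20, limma, adjusted p = 0.00227). The 4 tested probes of Rnaseh2a ran from -1.04, the brightest, to -0.43. Mcm6, the only lower MCM gene, had -0.98 (adjusted p = 0.00459), and Asf1b -0.91 (adjusted p = 0.00472). The other lower members were Cdt1 at -0.72 (adjusted p = 0.00782), Rfc1 at -0.64 (adjusted p = 0.00873) and Tk1 (thymidine kinase) at -0.84 (adjusted p = 0.0293). Chaf1b had -0.84 (adjusted p = 0.0226), Orc5 -0.73 (adjusted p = 0.0387) and Pold2 -0.56 (adjusted p = 0.0451).

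Pold1, the catalytic subunit of polymerase delta, was by brightest probes the only member higher in ICC than in p53LKO HCC. It stood at 0.087, 0.023, -0.20, -0.40 and 0.068 in the p53f/f HCC, at 1.01, 1.41, 1.09, 0.77 and 0.81 in the p53LKO HCC and at 2.87, 3.65, 3.53, 2.66 and 4.03 in the ICC. The 3 groups did not overlap anywhere, and the level was 5.01-fold higher in ICC than in p53LKO HCC, with a log2 fold change of 2.33 (SE 0.27, limma, adjusted p = 0.000139), and 2.15-fold higher in p53LKO HCC than in p53f/f HCC. It kept this call under all 31 alternatives, with log2 fold changes from 1.98 to 2.69. Pold2, the accessory subunit of the same polymerase, was lower in ICC, as given above. Dut had -0.099 by its brightest probe and 1.73 by its other one. The mean of its probes was called higher in ICC, at 0.81 (limma, adjusted p = 0.00304). The array files give no genome position for the single Pold1 probe, nor for those of Orc2, Pole2 and Rfc3.

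**Figure D4:**
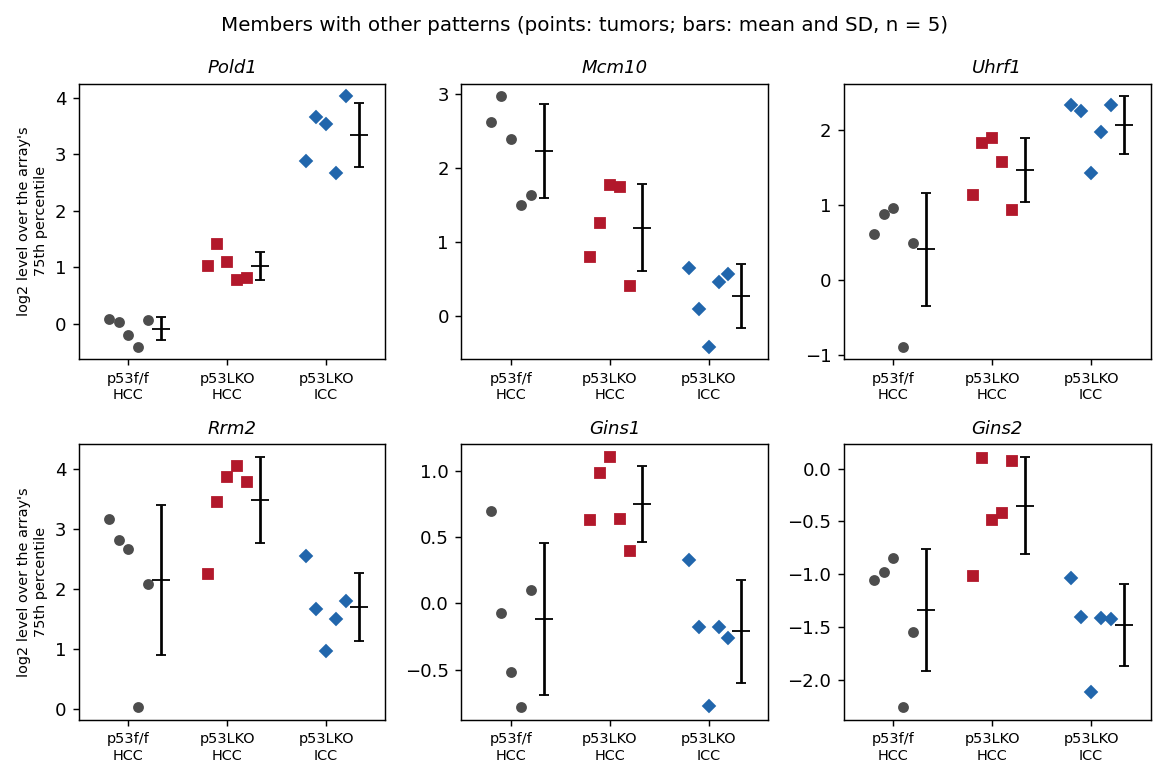
Levels (log2 signal minus the 75th percentile of the array) of 6 members in each tumor, with mean and SD (n = 5). Pold1 rises and Mcm10 falls from p53f/f HCC over p53LKO HCC to ICC, Uhrf1 is highest in the ICC, and Rrm2, Gins1 and Gins2 are highest in the p53LKO HCC.

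The 4 mice with both tumors allowed a comparison inside the animal. Members were higher in the ICC than in the HCC of the same mouse in 17 of the 47 tested for mouse 3731, 11 for 3733, 12 for 3976 and 13 for 5283, with median differences of -0.077, -0.28, -0.53 and -0.37. Pold1, Uhrf1 and Rrm1 were higher in the ICC of all 4 mice, as was Cdc6, whose probe was not well above background in 3 of these 8 tumors, while Mcm6, Mcm10, Gins1, Gins2, Gins3, Rrm2, Rnaseh2a, Asf1b and Cdt1 were among those lower in all 4. With the mouse as a block over these 8 tumors, 9 members were lower (17.4% of all genes) and 1, Pold1, higher (12.6%), and without the block on the same 8 tumors 8 were lower (21.3%). The shares of members that were lower are near those of all genes.

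10 of the 15 lower members kept their call without any 1 tumor, among them Gins1 to Gins4, Mcm6, Asf1b, Rrm2 and Rnaseh2a. Chaf1b lost it without the ICC of mouse 3976 or 3977 (log2 fold change -1.03 to -0.69 over all 10 omissions), and Mcm10 without the HCC of 5283, 3731 or 3733 or the ICC of 3733 or 3976 (-1.12 to -0.75). Tk1 lost it without the HCC of 5283 or 3975 or the ICC of 3733, 3976 or 3977 (-0.99 to -0.67). Orc5 lost it without the HCC of 3976, 5283, 3733 or 3975 or the ICC of 3733, 3976 or 3977 (-0.90 to -0.59), and Pold2 without any tumor but the ICC of 5283 (-0.75 to -0.49). Higher in addition to Pold1 were Rrm1 without the HCC of 5283 (0.65) and Uhrf1 without the ICC of 3976 (0.75).

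ICC and p53f/f HCC differ in tumor type and in p53, and this comparison shares its samples with both others. Of 47 members, 17 were higher and 1 was lower in ICC (36.2% and 2.13%), beside 16.2% and 20.7% of the 17748 genes tested. Past 2-fold, 8 were higher and 1 lower, beside 10.8% and 11.9%. The median log2 fold change was 0.47, beside -0.17 over all genes, and 12 members (25.5%) did not overlap, beside 27.3% of all genes. All p53f/f HCC lay in the upper row and all ICC in the lower, so row and group cannot be told apart. With the slide as a block, 5 were higher (Mcm4, Pold1, Prim2, Rrm1 and Uhrf1), beside 7.5% of all genes, and Mcm10 was lower. Scaled on the median of all probes or on the spike-in probes, 18 and 20 were higher (18% and 19.7% of all genes higher, 9.67% and 4.82% lower). The median difference was 0.71 on slide 1 (1 ICC against 4 p53f/f HCC) and 0.53 on slide 2 (4 against 1).

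Of the MCM genes 5 were higher in ICC, led by Mcm4 at 1.32 (adjusted p = 0.00401) and Mcm3 at 1.18 (adjusted p = 0.00901), neither with overlap. They were followed by Mcm5 at 1.03 (adjusted p = 0.0402), Mcm6 at 1.00 (adjusted p = 0.0465) and Mcm2 at 0.97 (adjusted p = 0.0223). Mcm7 did not pass, at 0.61 (adjusted p = 0.0941). Pold1 was 10.8-fold higher, the largest difference of any member in any comparison, with a log2 fold change of 3.43 (SE 0.26, limma, adjusted p = 1.82e-05). Uhrf1 stood at 0.61, 0.89, 0.96, -0.89 and 0.49 in the p53f/f HCC, at 1.14, 1.83, 1.90, 1.57 and 0.93 in the p53LKO HCC and at 2.34, 2.26, 1.43, 1.98 and 2.33 in the ICC. The ICC lay above every p53f/f HCC, with a log2 fold change of 1.66 (SE 0.35, limma, adjusted p = 0.00502). Pole2, an accessory subunit of polymerase epsilon, stood at -2.14, -3.52, -4.68, -4.04 and -2.60 in the p53f/f HCC, at -2.88, -2.84, -1.77, -1.69 and -2.66 in the p53LKO HCC and at -1.23, -1.84, -1.90, -2.60 and -1.94 in the ICC. Its groups overlapped, with a log2 fold change of 1.50 (SE 0.45, limma, adjusted p = 0.0272) and an exact permutation p of 0.0159.

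Also higher were Pole at 0.99 (adjusted p = 0.0332), Prim2 at 0.89 (adjusted p = 0.00609), Rrm1, the large subunit of ribonucleotide reductase, at 1.13 (adjusted p = 0.0064), and Orc2 at 0.91 (adjusted p = 0.0309). So were Fen1 at 0.87 (adjusted p = 0.0176), Dut at 0.76 (adjusted p = 0.0468), Orc6 at 0.74 (adjusted p = 0.017), Pcna at 0.56 (adjusted p = 0.0484) and Lig1 at 0.49 (adjusted p = 0.0431). The other Dut probe had a log2 fold change of 0.15. Mcm10 was the only lower member, 3.88-fold, without overlap and with a log2 fold change of -1.95 (SE 0.32, limma, adjusted p = 0.00148). No GINS gene passed, with log2 fold changes from -0.25 (Gins3) to 0.19 (Gins4), and no RPA gene passed by limma, nor by the unadjusted exact test. Rrm2, the other subunit of the enzyme of Rrm1, had -0.45 (adjusted p = 0.535) and did not pass.

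9 of the 17 higher members lost their call without at least 1 tumor. The other 8 (Fen1, Mcm3, Mcm4, Orc6, Pold1, Prim2, Rrm1 and Uhrf1) and Mcm10 kept their call without any 1 tumor. The count of higher members was 9 without tumor 1 of mouse 3717, 10 without its tumor 2, 10 without the ICC of 3731, 8 without that of 3733 and 11 without that of 5283, beside 14%, 14.7%, 15.2%, 13.2% and 14.6% of all genes, so that the share of members came near that of all genes in some of these fits. With the mean of its tumors standing for mouse 3717, 12 were higher (14.6% of all genes), and Dut, Lig1, Mcm6, Orc2 and Pcna lost their call. Without tumor 1 of 3717, Rrm2 was lower as well (-0.98, limma, adjusted p = 0.0489). Mcm2 lost its call without tumor 1 of 3717 or the ICC of 3733 (0.80 to 1.18). Mcm5 kept it only without 3681 or the ICC of 3976 (0.74 to 1.22), and Mcm6 only without 3715, 3716 or the ICC of 3977 (0.67 to 1.17). Pcna kept it only without 3715 or the ICC of 3976 or 3977 (0.48 to 0.66) and Lig1 only without the ICC of 3976 or 3977 (0.40 to 0.54). Pole lost it without tumor 2 of 3717 or the ICC of 3731, 3733 or 5283 (0.70 to 1.13). Pole2 lost it without 3716, tumor 1 of 3717 or the ICC of 3731, 3733 or 3976 (1.18 to 1.81). Orc2 lost it without 3681, 3715, either tumor of 3717 or the ICC of 3733 (0.63 to 1.04), and Dut did without 3681, either tumor of 3717 or the ICC of 3731, 3733, 3976 or 5283 (0.53 to 0.85).

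Set side by side over the 3 groups, the means of 23 members ran from p53LKO HCC over ICC down to p53f/f HCC, 5 of the 6 MCM genes, Cdt1, Pole and Pcna among them. 12 were highest in ICC with p53LKO HCC next, including Pold1, Uhrf1, Rrm1 and Mcm4. In 10, ICC had the lowest mean below p53f/f HCC, with p53LKO HCC on top, as in Gins1, Gins2, Gins3 and Rrm2. 2 ran from p53f/f HCC down to ICC, Mcm10 and Orc4. Cdc7, not well above background on any p53LKO array, has no order. These orders are of means alone: for Mcm4, for example, ICC and p53LKO HCC differed by 0.12 (adjusted p = 0.712), and for Orc4 no pair of groups passed.

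Tumors of the same group differed in the level of the whole set. The mean of the 48 members was 0.74, 0.71, 0.47, -0.25 and 0.32 in the p53f/f HCC, 0.97, 1.35, 1.23, 1.22 and 0.93 in the p53LKO HCC and 1.10, 0.93, 0.58, 0.71 and 1.08 in the ICC. All p53LKO HCC lay above all p53f/f HCC, and the ICC spanned the gap between them. Tumor 1 of mouse 3717 had the lowest level of its group in 34 of the 48 members, while tumor 2 of the same mouse was higher than it in 40 and the tumors differed by a median of 0.56. In the p53LKO HCC, mouse 5283 was highest in 22 members and 3975 lowest in 21, and in the ICC mice 3731 and 5283 were highest in 22 each and 3976 was lowest in 25. The median SD of a member was 0.51 in the p53f/f HCC, 0.35 in the p53LKO HCC and 0.30 in the ICC.

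**Figure D5:**
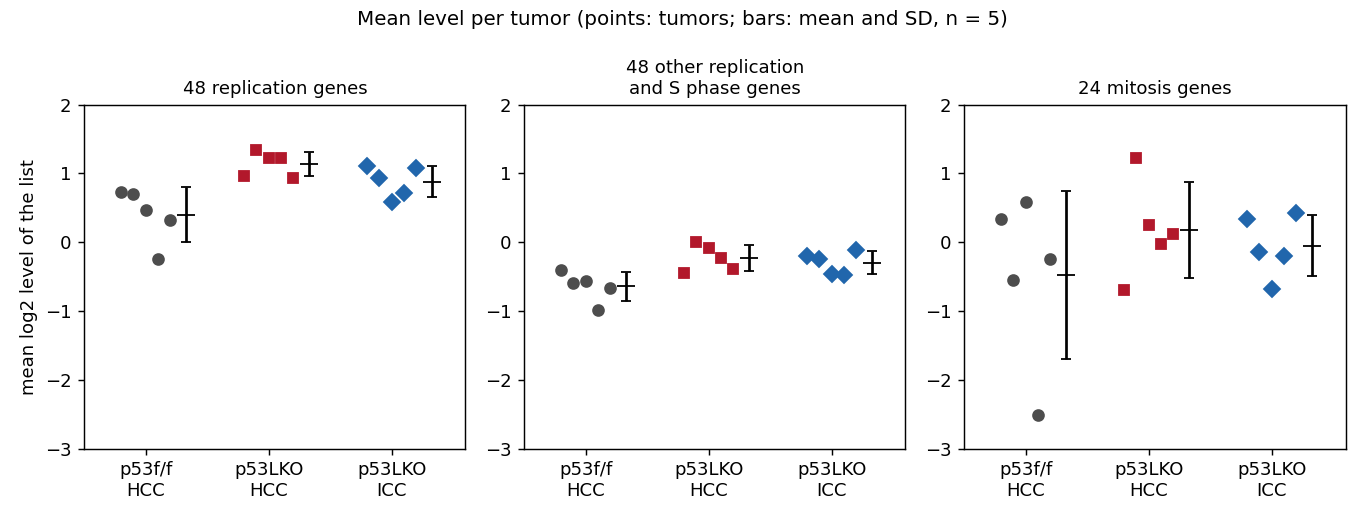
Mean log2 level per tumor of the 48 replication genes, of the 48 other replication and S phase genes on the array, and of 24 mitosis genes, with mean and SD of each group (n = 5). The 48 replication genes separate the HCC groups, from -0.25 to 0.74 against 0.93 to 1.35. The other replication and S phase genes overlap, from -0.99 to -0.41 against -0.44 to 0.00035. The mitosis genes overlap too, with tumor 1 of mouse 3717 lowest at -2.51.

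A list of 49 other genes of replication and S phase control, 48 of them on the array, was tested beside the members. Between the HCC, 8 of 44 tested were higher in p53LKO and 2 lower (median 0.38), beside the 13.8% and 15.7% of all genes, a share of higher genes near that of all. Among the higher were the nucleoside kinase Dck at 1.22 (adjusted p = 0.0148), E2f1 at 1.12 (adjusted p = 0.00978) and E2f2 at 0.92 (adjusted p = 0.00595). Rrm2b, a p53-induced reductase subunit, was also called higher but was tested only because of the p53LKO HCC. Fewer than 3 p53f/f HCC arrays read it well above background, so no fold change is given. Pola2, a subunit of polymerase alpha, was well above background on 3 of the p53LKO HCC arrays and on none of the p53f/f HCC arrays, and was tested only because of the former. Its level was at least 2.13-fold higher, a bound taken against the dimmest signals well above background. The lower genes were Mcm8, at -1.44 (adjusted p = 0.000127), and Asf1a, at -1.07 (adjusted p = 0.00877), relatives of Mcm2 to Mcm7 and of Asf1b. Cdkn1a, which encodes p21, had 0.14 (adjusted p = 0.779) and did not pass.

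Between ICC and p53LKO HCC, 2 of 44 of these genes were higher and 9 lower (median -0.095), below the 18.5% and 29.1% of all genes. Cdkn1a had the largest fall, at -1.79 (adjusted p = 0.00202). It was followed by cyclin E1 (Ccne1) at -1.30 (adjusted p = 0.00246), Nudt1 at -1.24 (adjusted p = 0.000219), Rnaseh2b at -1.20 (adjusted p = 0.00191) and Dbf4, the partner of Cdc7, at -1.11 (adjusted p = 0.00649). The higher genes were Mcm8 at 1.28 (adjusted p = 0.0321) and the nucleotide hydrolase Samhd1 at 0.95 (adjusted p = 0.00552). Against p53f/f HCC, 10 of 42 were higher in ICC and 6 lower (median 0.32), beside 16.2% and 20.7% of all genes. Dscc1, of an alternative clamp loader, rose most, at 2.10 (adjusted p = 0.00528), with Samhd1 at 1.38 (adjusted p = 0.00166), Chtf18 at 1.31 (adjusted p = 0.0335), Ticrr at 1.21 (adjusted p = 0.0227) and Hells at 1.19 (adjusted p = 0.0193). Cdkn1a fell most, at -1.65 (adjusted p = 0.00277), and among the others lower were Pold4 at -1.31 (adjusted p = 0.0215), Rnaseh2b at -0.87 (adjusted p = 0.00798) and Cdc45, part of the active helicase, at -0.82 (adjusted p = 0.0165).

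Mitosis genes, the next step of the cell cycle, were measured beside them. Of 22 tested between the HCC, none was higher by limma, nor by the exact permutation test at an unadjusted p under 0.05, and Ndc80 was lower, at -1.07 (adjusted p = 0.02). Of the 22, 20 had a positive sign and their median of 0.80 was close to the 0.86 of the replication genes. Their median SD was 1.37 in the p53f/f HCC and 0.77 in the p53LKO HCC, against 0.51 and 0.35 for the replication genes. Between ICC and p53LKO HCC, Ndc80 was higher at 1.12 (adjusted p = 0.0142) and Kif20a and Aurka were lower at -1.10 (adjusted p = 0.0447) and -0.85 (adjusted p = 0.0376) (median -0.18). No mitosis gene passed between ICC and p53f/f HCC, by limma or by the unadjusted exact test (median 0.47).

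Markers of other cells moved with the groups too, and their part in these results was not tested. Of 10 hepatocyte markers, 4 were lower in p53LKO HCC than in p53f/f HCC and 6 were lower in ICC than in p53LKO HCC. Against p53f/f HCC, 7 were lower in ICC, all over 2-fold. The mean level of the list was 6.81 to 7.82 in the p53f/f HCC, 6.45 to 6.99 in the p53LKO HCC and 4.20 to 6.52 in the ICC. Of 7 fibroblast and stellate cell markers, 1 was higher in p53LKO HCC and 6 were higher in ICC than in either HCC. The mean level of this list was 0.55 to 2.47, 2.07 to 3.93 and 4.34 to 5.38. Des, a stellate cell marker, was the 1 of the 7 not higher in ICC, and it was well above background on 3, 3 and 1 arrays of the groups in the same order. Of the 5 macrophage markers tested, 1 was higher in p53LKO HCC and 3 were higher in ICC than in p53f/f HCC, with none called between ICC and p53LKO HCC by limma, and 0 of 5 at an unadjusted exact permutation p under 0.05. Of 5 endothelial markers, 1 was lower between the HCC, 1 between ICC and p53LKO HCC and 3 between ICC and p53f/f HCC. Of 7 lymphocyte markers tested, 1 was lower between the HCC, 3 were higher and 2 lower between ICC and p53LKO HCC, and 1 was higher and 1 lower between ICC and p53f/f HCC. Of pancreatic acinar markers, 1 of 5, 2 of 3 and 2 of 5 were lower in these comparisons and none was higher. Pnlip and Cela2a, 2 of the 5, were tested only because of the p53f/f HCC arrays and so not between the p53LKO groups.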

How the data were processed

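RNA of 15 whole liver tumors had been labelled with 1 dye and hybridised to Agilent mouse arrays, and the authors extracted signals with Feature Extraction 10.7.3.1, per the file headers and the submitters' processing notes. The deposited intensity of a spot is its background-subtracted and detrended signal on a linear scale. The authors also deposited a table of log2 values, shifted per array and centred per probe over the HCC arrays for the HCC columns and over the p53LKO arrays for the ICC columns. It matched the scanner signals treated that way (lowest correlation 0.9999), its column medians ran from -0.33 to 0.35, and it was used as an alternative between the HCC alone.

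Here log2 intensities were averaged per probe over the spots not flagged as outliers, and this mean minus the array's 75th percentile is the level. Probes with every spot flagged on any array were not tested. Probes were tested where 3 or more arrays of either group read them well above background, with limma 3.58.1 (R 4.3.3) on the 10 arrays of each comparison, with Benjamini-Hochberg adjustment over all probes. Higher and lower mean an adjusted p under 0.05. A gene was represented by its brightest probe, and counts over all genes use the same rule. Exact permutation tests were two-sided over 252 splits of 5 against 5 tumors. Tumors of 1 mouse are not independent, so p-values partly measure the spread within mice. The number of arrays limits the precision, and no spot was saturated. The fit was tested on simulated data.

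Between HCC and ICC of the same animal, deviations from the group means correlated at -0.14 to 0.066 (4 pairs), and at -0.26 to 0.28 between animals (21 pairs). The pairing comes from the mouse numbers in the labels. Genes named with values in every tumor were the MCM genes, Pcna and the members with the largest changes past the threshold in each comparison, and members and gene lists were chosen with earlier results of these data known. Alternatives covered background correction, scaling, filters, tests, thresholds, probes, blocks and left-out tumors, and those on outlier spots, on arrays of 1 row and on the 8 paired tumors unblocked were added once the data had been seen. Promoter sequences are from RefSeq (GRCm38.p6), and array positions are as the files give them (mm9).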

Additional observations from a re-analysis of the deposited data

Results flagged for a closer look

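In 5 of the 144 sets of 5 tumors (48 genes in 3 groups), 1 tumor stood apart from the other 4, with a gap above 0.71 of the whole range, where chance alone gives about 7.2. Pole and Uhrf1 were each lowest in tumor 1 of mouse 3717, a p53f/f HCC: Pole at -1.63 against -0.26 to -0.051 in the others and Uhrf1 at -0.89 against 0.49 to 0.96. Pold2 was highest in the ICC of mouse 5283, at -0.38 against -1.43 to -1.21, and Gins4 in the ICC of mouse 3731, at 1.36 against 0.74 to 0.91. Rpa1 was lowest in the p53LKO HCC of mouse 3975, at 2.58 against 3.24 to 3.39.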

How the results depend on the processing

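Of the members called, 8 of 25 kept their call under all 31 alternatives between the HCC (Asf1b, Cdt1, Mcm5, Mcm6, Orc6, Pold1, Pole and Prim2), 2 of 16 under 31 between ICC and p53LKO HCC (Pold1 and Rnaseh2a) and 5 of 18 under 28 between ICC and p53f/f HCC (Mcm4, Mcm10, Pold1, Rrm1 and Uhrf1). Between the HCC, the 24 higher members became 15 at an adjusted p under 0.01, 13 past 2-fold, 44 with scaling on the median of all probes and 42 on spike-in probes, and 18 to 24 without 1 tumor, while the median of 0.86 became 1.46 and 1.50 under those scalings. The 1 lower member became 0 at an adjusted p under 0.01, within the upper row, with no filter, by the Mann-Whitney test, by the methods' t-test, with row or slide as a block and under both of those scalings, and 0 to 1 without 1 tumor. Between ICC and p53LKO HCC, the 15 lower members became 5 with scaling on probes detected on all arrays, 27 on the median of all probes, 8 at an adjusted p under 0.01, 3 past 2-fold, 2 within the lower row, 5 with row as a block, 9 with the mouse as a replicate block, 8 on the same tumors with no replicate block, and 10 to 17 without 1 tumor. The 1 higher member became 5 with scaling on probes detected on all arrays, 2 with the mean of a gene's probes or quantile normalization, and 1 to 2 without 1 tumor. The median of -0.33 turned to 0.035 with scaling on probes detected on all arrays and was -0.68 on the median of all probes and -0.14 after quantile normalization. Between ICC and p53f/f HCC, the 17 higher members became 6 at an adjusted p under 0.01, 8 past 2-fold, 11 by the Mann-Whitney test, 9 by the methods' t-test, 5 with slide as a block and 8 to 17 without 1 tumor, the 1 lower became 1 to 2 without 1 tumor, and the median of 0.47 became 0.73 on the median of all probes and 0.96 on spike-in probes. With the mean of its probes Dut turned to -0.36 between the HCC and to 0.81 between ICC and p53LKO HCC, and Orc4 turned to 0.50 between the HCC on the median of all probes. Beyond what the scalings shift by construction, the cause was not tested. Signal over background limits Cdc6, Cdc7, Orc2, Orc5 and Pole2, the members whose probe was not well above background on every array.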
